A study of Mus musculus with 8 samples.

Results

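The 7 genes described here encode the Fos proteins (Fos, Fosb, Fosl1 and Fosl2) and the Jun proteins (Jun, Junb and Jund) of the transcription factor AP-1. They were taken by their gene symbol in the platform annotation, which gave each 1 probe set, so 7 of 22206 probe sets are described. All 7 lay above the filter on low values and were tested. The arrays measured total RNA of male mice aged 12 weeks that had received clothianidin, a neonicotinoid insecticide acting on nicotinic acetylcholine receptors, or a vehicle with 1% DMSO, for 2 weeks. The 4 groups were hippocampus of mice given 50 mg/kg/day (Hip CLO50), hippocampus of vehicle mice (Hip Ctrl), cerebral cortex of mice given the same dose (Ctx CLO50) and cerebral cortex of vehicle mice (Ctx Ctrl). Each group had 2 arrays, numbered 3 and 6 in the exposed groups and 1 and 6 in the vehicle groups. The sources used here give neither the strain nor the route of dosing. No label says whether the arrays of 1 group stem from different mice, so every p-value below rests on a spread between arrays that may be technical.

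AP-1 is a dimer of basic leucine zipper proteins that binds short palindromic sites in promoters and enhancers. Fos proteins need a Jun partner to form a stable dimer, while Jun proteins also pair with one another. In neurons Fos, Fosb and Junb are immediate early genes, transcribed within minutes of calcium entry or MAP kinase signalling, and Fos RNA is widely used as a mark of recent neuronal firing. Jund is transcribed at a steadier level. Fosb also gives a shortened, stable protein, deltaFosB, that builds up on repeated stimulation, and its single probe set gives 1 value for both forms. On GRCm38.p6 the members lie at chr12:85473890-85477274 (Fos), chr7:19302696-19310118 (Fosb), chr19:5447698-5455938 (Fosl1), chr5:32136472-32157840 (Fosl2), chr4:95049036-95052222 (Jun), chr8:84976909-84978748 (Junb) and chr8:70697739-70700616 (Jund).

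The promoters of 6 members were in the RefSeq table of build GRCm38.p6, each as a window from 250 bases before to 50 bases after an annotated start. Those of Fos, Fosb, Junb and Jun are shown because Fos and Junb varied together across the arrays while Jun had the opposite tissue difference. Capitals mark the cyclic AMP response element (CRE) half-site TGACG, the TATA box TATAAA, the proximal Jun site TGACATCA and the MEF2 consensus, each searched on both strands. The lines give the windows on the strand of the gene, at chr12:85473640-85473939 (plus strand) for Fos, chr7:19309996-19310295 (minus) for Fosb, chr8:84978699-84978998 (minus) for Junb and chr4:95052173-95052472 (minus) for Jun.
Fos: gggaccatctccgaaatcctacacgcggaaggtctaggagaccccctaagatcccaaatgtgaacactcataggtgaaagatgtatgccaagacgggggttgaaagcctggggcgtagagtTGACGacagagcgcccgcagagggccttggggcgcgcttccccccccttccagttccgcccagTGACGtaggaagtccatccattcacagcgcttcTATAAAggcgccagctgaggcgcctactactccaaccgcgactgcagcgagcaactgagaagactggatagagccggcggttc
Fosb: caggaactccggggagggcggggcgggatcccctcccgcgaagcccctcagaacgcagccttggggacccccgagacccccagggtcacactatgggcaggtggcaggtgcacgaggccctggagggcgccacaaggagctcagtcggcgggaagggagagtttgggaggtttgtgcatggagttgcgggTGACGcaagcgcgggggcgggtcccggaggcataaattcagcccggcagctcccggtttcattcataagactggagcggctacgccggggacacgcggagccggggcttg
Junb: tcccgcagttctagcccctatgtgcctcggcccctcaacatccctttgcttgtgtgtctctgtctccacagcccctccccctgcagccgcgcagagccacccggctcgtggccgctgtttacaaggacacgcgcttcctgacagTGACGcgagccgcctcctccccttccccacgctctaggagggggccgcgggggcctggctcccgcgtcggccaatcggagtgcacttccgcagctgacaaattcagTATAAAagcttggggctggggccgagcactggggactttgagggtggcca
Jun: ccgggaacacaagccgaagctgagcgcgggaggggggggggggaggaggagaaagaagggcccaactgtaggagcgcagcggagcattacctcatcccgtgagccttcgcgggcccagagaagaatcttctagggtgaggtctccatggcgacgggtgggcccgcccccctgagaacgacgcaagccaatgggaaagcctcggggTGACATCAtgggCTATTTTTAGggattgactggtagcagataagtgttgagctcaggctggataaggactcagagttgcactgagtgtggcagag

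Fos carried the half-site 129 and 66 bases before its start, Fosb 60 and Junb 106 bases before theirs, and the window of Jun held none. This half-site was held by 20.8% of all 32851 promoter windows tabulated. A TATA box, found in 13.6% of all windows, was present in Fos, 33 bases before the start, and in Junb, where it begins at the annotated start. The window of Jun held TGACATCA 45 bases before its start, a match found in 3.62% of all windows, and a MEF2 consensus 33 bases before it, found in 3.19%. The full CRE (TGACGTCA, 1.79% of all windows), the AP-1 site TGANTCA (7.81%) and the CArG box of serum response factor (1.63%) had no match in the 6 windows, which says only that those letters are not in these stretches.

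The tissue labels were checked first. All 10 hippocampal neuron markers on the array, such as Prox1 and C1ql2, were higher in each of the 4 hippocampus arrays than in any cortex array, and 9 of 12 cortical markers, such as Lamp5 and Cux2, were higher in each cortex array. The median log2 value of an array over all probe sets lay between 5.21 and 5.4, and the 2 arrays within each group correlated with r between 0.9867 and 0.9915. Choroid plexus RNA was uneven in the vehicle arrays: the 9 choroid plexus markers kept, of 12 listed, averaged 5.16 and 5.07 on a log2 scale in Hip CLO50, 11.57 and 5.10 in Hip Ctrl, 4.34 and 4.36 in Ctx CLO50, and 4.15 and 6.43 in Ctx Ctrl. The high arrays were Hip Ctrl array 1 and Ctx Ctrl array 6.

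**Figure D1:**
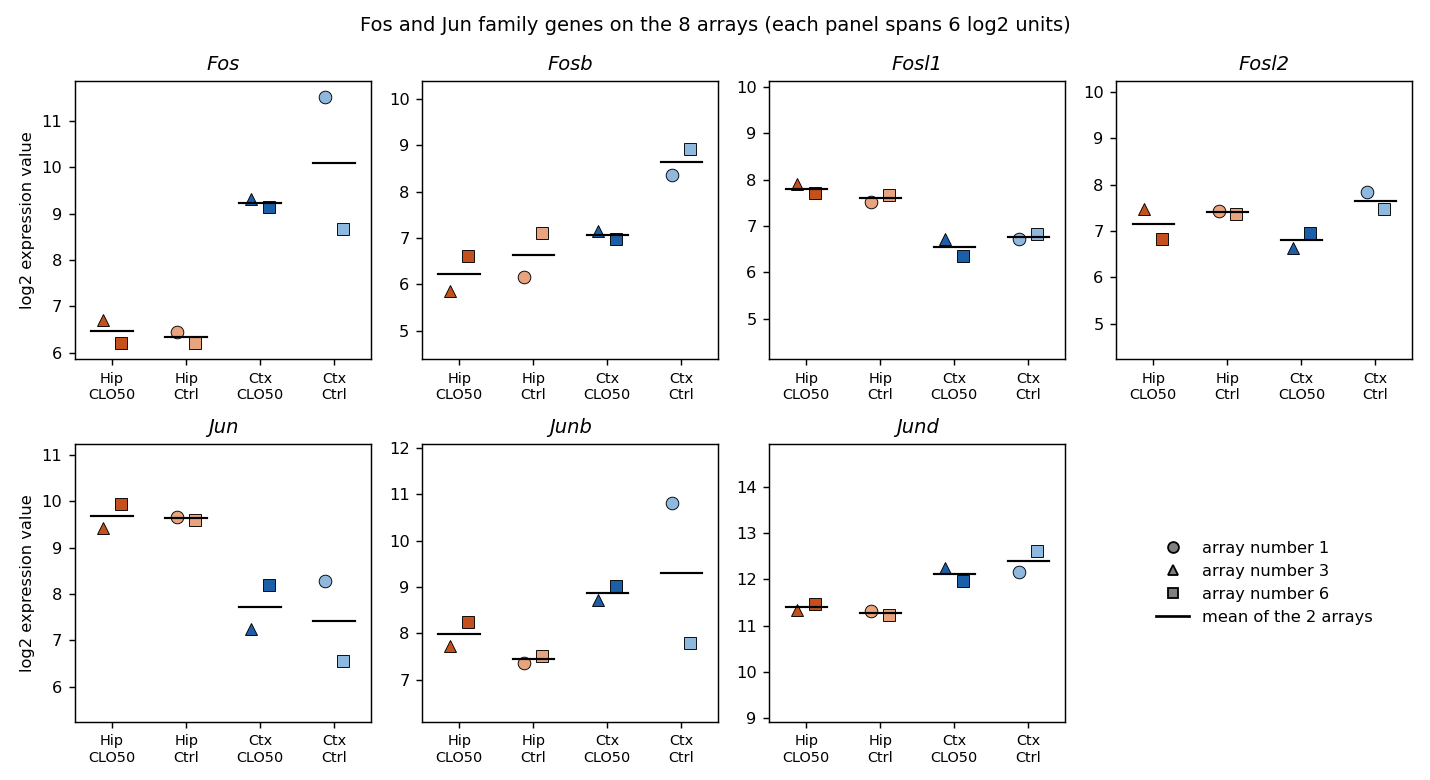
Log2 expression values (vertical axes) of the 7 AP-1 genes on each array, by tissue and treatment; points are single arrays, shapes give the array number and bars the mean of 2 arrays. Fos lies between 6.22 and 6.70 on the 4 hippocampus arrays and between 8.67 and 11.51 on the 4 cortex arrays, and its 2 Ctx Ctrl arrays stand apart.

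Among the Fos family, Fos itself showed the widest tissue contrast. Its log2 values were 6.70 and 6.22 in Hip CLO50, 6.45 and 6.22 in Hip Ctrl, 9.31 and 9.14 in Ctx CLO50, and 11.51 and 8.67 in Ctx Ctrl. Every hippocampus array thus lay below every cortex array, the hippocampus groups overlapped, and the cortex groups overlapped too because vehicle array 6 was the lowest and vehicle array 1 the highest of the 4. Fos was 6.80-fold lower in hippocampus than in cortex of exposed mice (log2 difference -2.765, SE 0.64 and 95% interval -4.16 to -1.37, limma adjusted p = 0.0133). In vehicle mice it was 13.5-fold lower (-3.755, SE 0.64, -5.15 to -2.36, limma adjusted p = 0.00172). The vehicle difference was -2.335 without Ctx Ctrl array 1 and -5.175 without array 6, each resting on the 1 vehicle cortex array left. The exposed difference missed the threshold when Ctx CLO50 array 3 or 6 or Hip CLO50 array 6 was left out (limma adjusted p = 0.0799, 0.0610 and 0.0941), with values from -2.85 to -2.525.

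Fosb measured 5.85 and 6.60 in Hip CLO50, 6.16 and 7.10 in Hip Ctrl, 7.14 and 6.98 in Ctx CLO50, and 8.35 and 8.92 in Ctx Ctrl. The Ctx Ctrl arrays were the highest of the 8, and they differed by 0.57, against 2.84 for Fos. In vehicle mice Fosb was 4.01-fold lower in hippocampus (log2 difference -2.005, SE 0.37 and 95% interval -2.82 to -1.19, limma adjusted p = 0.00309). In exposed mice the difference was -0.835 (SE 0.37, -1.65 to -0.02, limma adjusted p = 0.161). Without the 2 vehicle arrays high in choroid plexus genes the vehicle difference was -1.25 and missed the threshold (limma adjusted p = 0.129).

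The other Fos-related genes varied less. Fosl1, which encodes FRA-1, a partner of Jun proteins that lacks the transactivation domain of Fos, measured 7.90 and 7.72 in Hip CLO50, 7.51 and 7.68 in Hip Ctrl, 6.72 and 6.36 in Ctx CLO50, and 6.71 and 6.83 in Ctx Ctrl. All hippocampus arrays were above all cortex arrays. The difference was 2.41-fold in exposed mice (log2 1.27, SE 0.27, limma adjusted p = 0.00818) and 1.77-fold in vehicle mice, where it missed the threshold (0.825, SE 0.27, limma adjusted p = 0.0539). The vehicle difference passed with a stricter filter on low values or without the mean-variance trend (limma adjusted p = 0.0455 and 0.0474). Without Ctx CLO50 array 6 or Hip CLO50 array 3 the exposed difference, at 1.09 and 1.18, missed it as well (limma adjusted p = 0.0736 and 0.0540). Fosl2, the gene of FRA-2, measured 7.47 and 6.82 in Hip CLO50, 7.44 and 7.37 in Hip Ctrl, 6.64 and 6.95 in Ctx CLO50, and 7.83 and 7.47 in Ctx Ctrl, and its tissue differences of 0.35 and -0.245 in exposed and vehicle mice did not pass (limma adjusted p = 0.482 and 0.62).

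In the Jun family, Jun ran against Fos. It measured 9.43 and 9.94 in Hip CLO50, 9.67 and 9.60 in Hip Ctrl, 7.24 and 8.20 in Ctx CLO50, and 8.29 and 6.55 in Ctx Ctrl. Every hippocampus array lay above every cortex array, while the treatments overlapped within each tissue. Jun was 3.90-fold higher in hippocampus of exposed mice (log2 difference 1.965, SE 0.48 and 95% interval 0.91 to 3.02, limma adjusted p = 0.0178) and 4.64-fold higher in hippocampus of vehicle mice (2.215, SE 0.48, 1.16 to 3.27, limma adjusted p = 0.00799). The exposed difference missed the threshold without Ctx CLO50 array 3 (1.485, limma adjusted p = 0.15) or Hip CLO50 array 6 (1.71, 0.123). The vehicle difference was 1.345 without Ctx Ctrl array 6 (limma adjusted p = 0.0796) and 1.31 without both arrays high in choroid plexus genes (0.140).

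Junb, an immediate early partner of Fos, had 7.74 and 8.25 in Hip CLO50, 7.37 and 7.51 in Hip Ctrl, 8.72 and 9.03 in Ctx CLO50, and 10.82 and 7.80 in Ctx Ctrl. Its vehicle cortex arrays were the highest and the lowest of the cortex, as for Fos, and array 6 fell within the range of the exposed hippocampus. The log2 differences between hippocampus and cortex, -0.88 in exposed and -1.87 in vehicle mice, did not pass (SE 0.68 each, limma adjusted p = 0.425 and 0.0778). The vehicle value was -0.36 without Ctx Ctrl array 1 and -3.38 without array 6, each resting on the 1 vehicle cortex array left. Without both arrays high in choroid plexus genes it was -3.31, with Ctx Ctrl array 1 again the lone vehicle cortex array.

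Jund, the steadily transcribed Jun gene, measured 11.34 and 11.47 in Hip CLO50, 11.32 and 11.23 in Hip Ctrl, 12.25 and 11.97 in Ctx CLO50, and 12.16 and 12.62 in Ctx Ctrl. All hippocampus arrays were below all cortex arrays, and the widest gap within a group, 0.46, was that of Ctx Ctrl. It was 2.17-fold lower in hippocampus of vehicle mice (log2 difference -1.115, SE 0.24 and 95% interval -1.64 to -0.59, limma adjusted p = 0.00714). In exposed mice it differed by -0.705 (SE 0.24, -1.23 to -0.18, limma adjusted p = 0.0704), and -0.82 with quantile normalization, which passed (0.0459). Without Ctx Ctrl array 6 the vehicle difference was -0.885 (limma adjusted p = 0.0915), and without both arrays high in choroid plexus genes -0.93 (0.140).

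**Figure D2:**
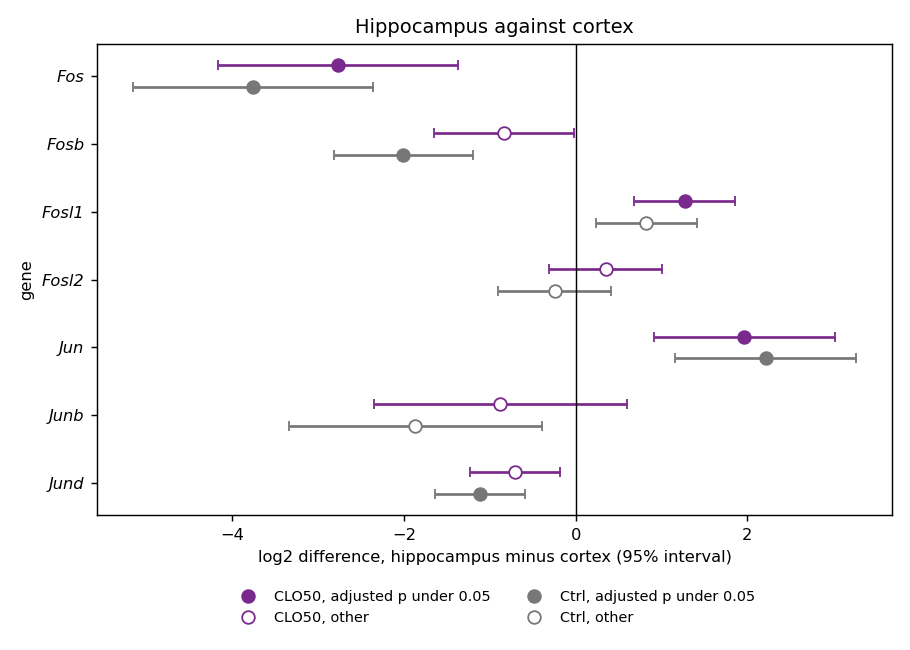
Log2 difference between hippocampus and cortex (horizontal axis, hippocampus minus cortex) for the 7 AP-1 genes (vertical axis) in CLO50 mice and in Ctrl mice; circles are estimates, filled where the adjusted p is under 0.05, and bars are 95% intervals from limma. Fos lies at -2.765 and -3.755 and Jun at 1.965 and 2.215.

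Across the family, 3 of 7 members passed in exposed mice (Fosl1 and Jun higher in hippocampus, Fos lower), where 14.5% of all tested probe sets did, 9.25% as higher and 5.22% as lower. In vehicle mice 4 of 7 passed (Jun higher; Fos, Fosb and Jund lower), against 17.7% of all tested, 10.1% as higher and 7.63% as lower. The median log2 difference of the 7 was -0.705 in exposed and -1.115 in vehicle mice, against 0.125 and 0.1 over all 14804 probe sets tested. Groups did not overlap for 6 of 7 members in exposed mice and 7 of 7 in vehicle mice, with 57% and 59.2% among all tested. Quantile normalization moved the median of all probe sets from 0.125 to 0.005 in the exposed comparison, and relative to the median as deposited Fos differed by -2.89, Jun by 1.84, Fosl1 by 1.145 and Jund by -0.83. Both tissue comparisons are of bulk samples, in which fewer cells of a type and less RNA per cell cannot be told apart.

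The second question was whether clothianidin changed these genes within a tissue. No member passed in hippocampus or in cortex, where 0.00675% of all tested probe sets did in each (1 probe set). In cortex 6 of 7 members had lower and 1 a higher mean in exposed mice (median log2 difference -0.435, against -0.025 over all tested). Markers of some other cells had lower means there too. Of 9 microglial markers 9 did (median -0.305, 5 without overlap), averaging 7.79 and 7.61 in Ctx CLO50 and 8.06 and 7.97 in Ctx Ctrl. Of 7 oligodendrocyte markers 6 did (-0.31, 4 without overlap), averaging 12.07 and 11.85 in Ctx CLO50 and 12.16 and 12.19 in Ctx Ctrl. Cortical neuron markers had lower means for 7 of 12 (median -0.3275), with 4 lower and 2 higher without overlap. Of these 12, 1 passed as lower, Nr4a2, the only probe set that passed in cortex. Endothelial markers had lower means for 6 of 8 (-0.08), with 3 lower and 2 higher without overlap. Choroid plexus markers had lower means for 7 of 9 (-0.46), with 2 lower and 0 higher without overlap. Higher means were held by 6 of 9 hippocampal neuron markers (median 0.26, 5 without overlap, against 17.1% of all tested as higher). The same held for 5 of 7 meningeal and fibroblast markers (0.34) and 6 of 8 astrocyte markers (0.08). The part of these cells in the cortical values was not tested. Fosb and Fosl2 were the members with both exposed arrays below both vehicle arrays, 2 of 7, where 21.4% of all tested probe sets were lower in that way. In hippocampus 5 members had higher and 2 lower means (median 0.125, against 0.005), and Fosl1, Junb and Jund, 3 of 7, had both exposed arrays above both vehicle arrays, against 16.7% of all tested.

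Fosb had the largest cortical difference of the family, at -1.575 (2.98-fold lower in Ctx CLO50, SE 0.37 and 95% interval -2.39 to -0.76, limma adjusted p = 0.74). Leaving out 1 array at a time gave -1.86 to -1.29. Fosl2 differed by -0.855 in cortex (SE 0.30, -1.51 to -0.20, limma adjusted p = 0.74), and by -1.035 to -0.675 with 1 array left out. At an unadjusted p under 0.05, 2 of 7 members (Fosb and Fosl2) differed in cortex and 0 in hippocampus by limma, where 6.18% and 5.81% of all tested probe sets did. Both cortical differences were negative, as were those of 3.92% of all tested. In hippocampus Fosb differed by -0.405 (SE 0.37) and Fosl2 by -0.26 (SE 0.30).

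Fos differed by -0.865 in cortex with an interval of -2.26 to 0.53 (limma adjusted p = 0.862), and Junb by -0.435 with an interval of -1.91 to 1.04 (0.951). Both signs turned without Ctx Ctrl array 1, to 0.555 for Fos and 1.075 for Junb, while without Ctx Ctrl array 6 they were -2.285 and -1.945. Jun differed by 0.30 in cortex (-0.75 to 1.35) and by -0.57 without Ctx Ctrl array 6 and -0.18 without Ctx CLO50 array 6. The intervals of Jund (-0.28) and Fosl1 (-0.23) included 0. In hippocampus the differences of Fos (0.125), Jun (0.05), Jund (0.13) and Fosl1 (0.215) were under 0.25 in size, and Junb differed by 0.555 with an interval of -0.92 to 2.03. Without Hip CLO50 array 3 Fos differed by -0.115, and without Hip CLO50 array 6 Jun differed by -0.205.

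**Figure D3:**
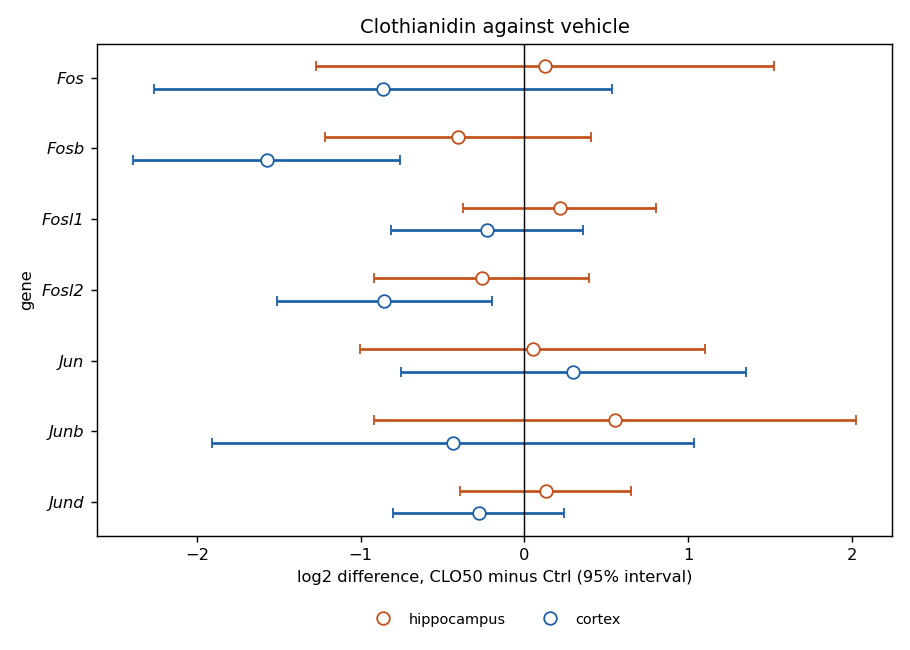
Log2 difference between CLO50 and Ctrl (horizontal axis, CLO50 minus Ctrl) for the 7 AP-1 genes (vertical axis) in hippocampus and in cortex; circles are estimates and bars 95% intervals from limma. No adjusted p is under 0.05, and Fosb in cortex, at -1.575, lies farthest from 0.

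The exposure difference itself was compared between tissues. It was 1.17 higher in hippocampus than in cortex for Fosb (log2, SE 0.53 and 95% interval 0.02 to 2.32, limma adjusted p = 0.998), and the other 6 members had intervals that included 0. The value for Fosb was 0.70 without Hip Ctrl array 1, 1.64 without Hip Ctrl array 6 and 0.415 without the 2 vehicle arrays high in choroid plexus genes. Without those 2 arrays the value for Fos was 2.525, against 0.99 with them, and that for Junb was 2.43, also against 0.99, and neither passed (limma adjusted p = 0.469 and 0.514). None of the 7 passed, as none of 14804 did (0%); at an unadjusted p under 0.05 Fosb was the 1 member, where limma gave 3.45% of all tested. The same quantity compares the tissue difference of exposed with that of vehicle mice, so the passing of Fosb and Jund in vehicle mice alone and of Fosl1 in exposed mice alone is not shown to be a difference between treatments. Averaged over both tissues, with arrays of 1 treatment and number combined, Fosb differed by -0.99 (SE 0.28, -1.59 to -0.39, limma adjusted p = 0.805) and Fosl2 by -0.5575 (SE 0.22, 0.826), and 0 of 7 passed, where 0.00675% of all tested did. At an unadjusted p under 0.05 these 2 of 7 did, against 5.97% of all tested by limma, 3.24% as lower.

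The spread between the vehicle cortex arrays set the precision for part of the family. Array 1 exceeded array 6 by 3.02 for Junb (8.11-fold), 2.84 for Fos (7.16-fold) and 1.74 for Jun (3.34-fold) on the log2 scale. These gaps ranked 5, 10 and 28 among 14804 tested probe sets, whose median gap was 0.25. Fosl2 differed by 0.36 between the same arrays, and Fosb (-0.57), Jund (-0.46) and Fosl1 (-0.12) were higher in array 6. Centred on the mean of each tissue, Fos and Junb correlated at r of 0.90 over the 8 arrays, Jun and Junb at 0.82, Fos and Jun at 0.61, and Fos and Fosb at 0.05; the points share their arrays and 1 array weighs heavily, so these are descriptions.

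Genes co-induced with Fos in active neurons were read in the same arrays. Of 32 such immediate early genes kept, of 35 listed, 20 (62.5%) were highest in Ctx Ctrl array 1 among the cortex arrays, as were 4 of 7 AP-1 members, against 29.4% of all tested probe sets. Among them the growth factor response gene Ccn1 measured 7.97 and 7.82 in Ctx CLO50 and 10.72 and 6.57 in Ctx Ctrl, and the neuronal activity factor Npas4 8.14 and 7.04 in Ctx CLO50 and 10.04 and 6.73 in Ctx Ctrl. In both genes vehicle array 1 was above the other 3 cortex arrays and vehicle array 6 was the lowest. Choroid plexus genes averaged lowest in array 1 and highest in array 6 of the vehicle cortex, and their part in these values was not tested.

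**Figure D4:**
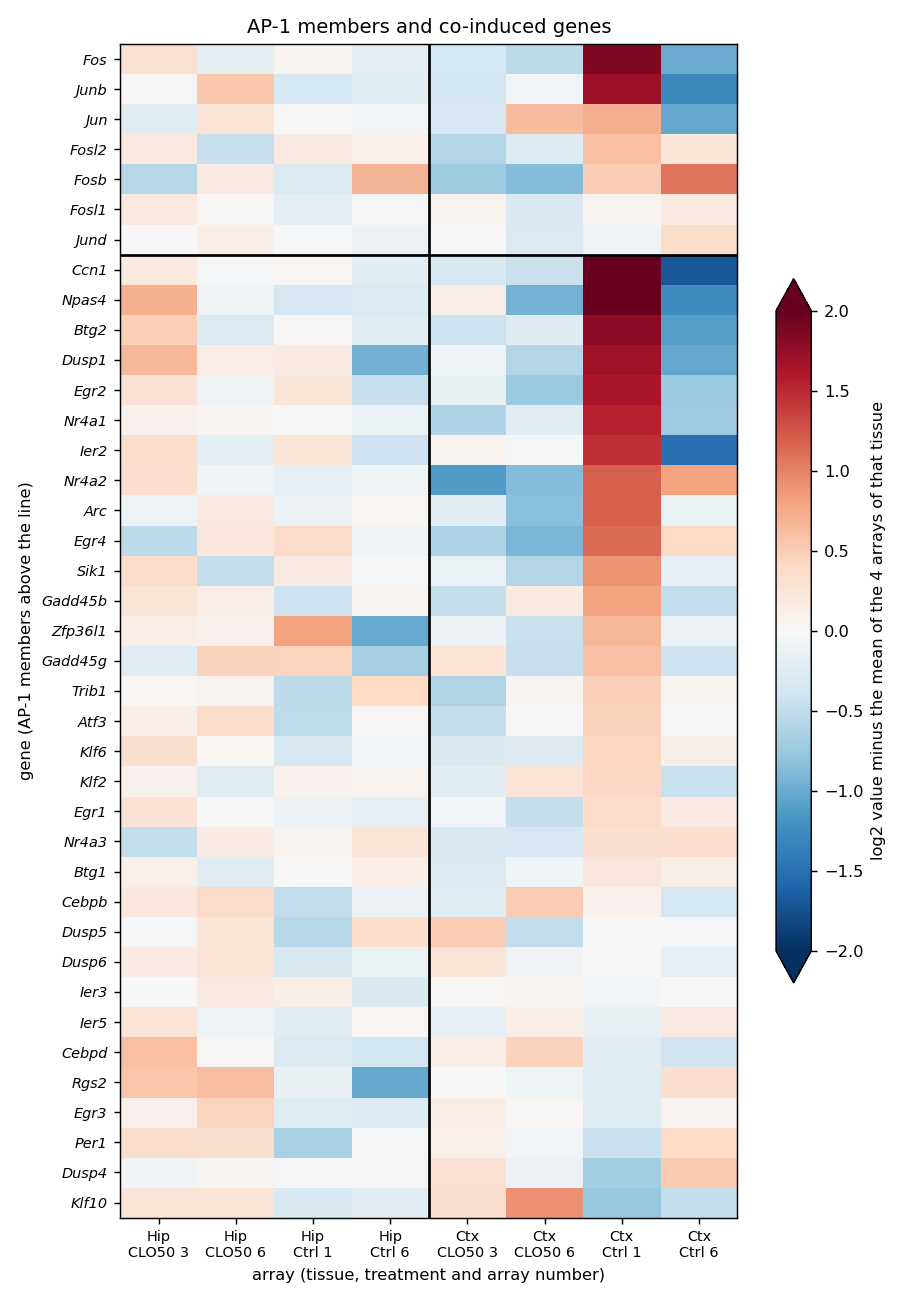
Log2 value minus the mean of the 4 arrays of the tissue (colour) for the 7 AP-1 genes (above the line) and 32 co-induced immediate early genes (below it), in rows, on the 8 arrays, in columns. Fos, Junb, Ccn1 and Npas4 are highest in Ctx Ctrl array 1, while Fosb is higher in Ctx Ctrl array 6 than in array 1.

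The same 32 genes were also compared between tissues. In exposed mice 11 passed as lower and 5 as higher (median log2 difference -0.95, against 0.125 over all tested), where 5.22% of all tested probe sets passed as lower and 9.25% as higher. In vehicle mice 17 passed as lower and 3 as higher (median -1.465, against 0.1), with 7.63% and 10.1% of all tested. Under exposure 1 of 32 passed in cortex, Nr4a2, an orphan nuclear receptor gene (-2.005, SE 0.24, limma adjusted p = 0.0369), and no probe set passed there when any 1 of the 4 cortex arrays or of the 2 Hip CLO50 arrays was left out. The next smallest p were those of the zinc finger genes Klf10 (1.24, SE 0.27) and Egr4 (-1.525, SE 0.35), each with limma adjusted p = 0.74. In exposed cortex 21 of the 32 had lower and 11 higher means (median -0.4075). Both exposed cortex arrays lay below both vehicle arrays for 7 of the 32, against 21.4% of all tested, and above them for 3, against 17.1%. In exposed hippocampus 26 had higher and 6 lower means (median 0.22), 0 passed by limma, and both exposed arrays lay above both vehicle arrays for 14, against 16.7% of all tested. Markers of cortical neurons moved with this: 9 of the 12 kept, of 14 symbols listed, had both exposed hippocampus arrays above both vehicle arrays. Ccn2 was listed also under its older symbol Ctgf. The 12 averaged 10.01 and 9.37 in Hip CLO50 and 8.93 and 8.89 in Hip Ctrl. Nr4a2 is on both lists and counts among the 14 co-induced genes and the 9 markers without overlap. Of the 12 markers 1 passed as higher in exposed hippocampus, the only probe set of all tested that passed there. Hippocampal neuron markers had lower means there for 6 of 9 (median -0.085). Of these, 4 were without overlap, where 14% of all tested were lower in that way. Of 8 endothelial markers 7 had higher means in exposed hippocampus (median log2 difference 0.42), with no overlap for 3. The 9 choroid plexus markers kept were high in Hip Ctrl array 1 alone, with means of 5.16 and 5.07 in Hip CLO50 and 11.57 and 5.10 in Hip Ctrl. The part of these cells in the hippocampal values was not tested.

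The other parts of the pathway held no gene that passed under exposure in either tissue. Of 19 tested basic leucine zipper partners outside the Fos and Jun families, 11 had higher and 8 lower means in exposed hippocampus, and 10 and 9 in exposed cortex. Their smallest p belonged to Bach1, a repressor that pairs with small Maf proteins (-0.72 in cortex, SE 0.32, limma adjusted p = 0.801), to the stress factor gene Atf4 (0.775 in hippocampus, SE 0.37, 0.853) and to Atf6, a factor of the unfolded protein response (0.445 in hippocampus, SE 0.22, 0.859). Of 17 factors that act on the Fos and Jun promoters, 11 had higher means in exposed hippocampus and 8 in exposed cortex. Mef2c, a MADS box factor gene that is also among the cortical neuron markers named above, differed by 0.93 in hippocampus (SE 0.21, limma adjusted p = 0.639). The CREB coactivator gene Crtc1 differed by -0.675 in cortex (SE 0.22, 0.74) and Creb1, the gene of CREB itself, by 0.545 in cortex (SE 0.25, 0.804).

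Among 25 tested genes of MAP kinase and calcium signalling, 16 had higher means in exposed hippocampus and 10 in exposed cortex. Mapk10, the neuronal Jun kinase gene JNK3, differed by -0.82 in cortex (SE 0.24, limma adjusted p = 0.74) and by -0.425 in hippocampus (SE 0.24, 0.896). Prkaca, a catalytic subunit of protein kinase A, differed by -0.615 in cortex (SE 0.21, 0.74) and Camk2d, a calmodulin kinase gene, by 0.62 in hippocampus (SE 0.26, 0.841). Of 10 genes of Jun and Fos turnover and cofactors, 5 had higher means in each tissue. Those with the smallest p were the deacetylase gene Hdac3 (0.73 in cortex, SE 0.26, 0.74), Fbxw7, a ubiquitin ligase subunit that acts on Jun (-0.605 in cortex, SE 0.30, 0.808), and Trrap (0.575 in cortex, SE 0.36, 0.821).

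Of 25 tested genes known as targets of AP-1 or FosB, 10 had higher and 15 lower means in exposed hippocampus, and 9 and 15 in exposed cortex, where 1 did not differ. The neuropeptide genes Nts (1.21, SE 0.31) and Vip (1.165, SE 0.35) and the activin subunit gene Inhba (-0.99, SE 0.27) had the smallest p, all in hippocampus and each with limma adjusted p = 0.769. Nts measured 7.38 and 7.53 in Hip CLO50 and 6.06 and 6.43 in Hip Ctrl. Inhba measured 6.04 and 6.05 in Hip CLO50 and 7.03 and 7.04 in Hip Ctrl. Neither gene had overlapping groups there, a pattern held by 30.7% of all tested probe sets.

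Genes with the most similar pattern were sought by Pearson r over the 8 log2 values, given as a description because the arrays fall into 2 tissues. For Fos these were Nr4a1, an orphan receptor gene of the immediate early class (r = 0.9933), Egr2, an early growth response factor gene (0.9904), and the cell cycle kinase gene Wee1 (0.984). Junb was nearest to Cd276 (0.9709), Rgs3 (0.9659) and Ccn1 (0.9652). Fosb was nearest to Rabif (0.9716), the mitochondrial gene Ndufab1 (0.9589) and Rnf41 (0.9513), none of which is on the list of co-induced genes. Jun was nearest to Gmnc (0.9874), Ubxn2b (0.9869) and the MAP kinase kinase gene Map2k6 (0.9826). Jund followed Cyp11a1, Etv5 and Ppfia3 (0.9726 to 0.9845), Fosl1 followed Chst15, Enox2 and St6galnac3 (0.9827 to 0.9857), and Fosl2 followed Incenp, Hnrnpa0 and Nes (0.9371 to 0.9667).

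The order of the group means differed between members. For Fos and Junb it ran from Ctx Ctrl through Ctx CLO50 and Hip CLO50 to Hip Ctrl, and for Jund likewise. For Fos neither neighbouring pair within a tissue differed beyond its spread, and the step between Ctx CLO50 and Hip CLO50, which shared no value, was the one that separated the arrays. Fosb ran from Ctx Ctrl through Ctx CLO50 and Hip Ctrl to Hip CLO50, with the hippocampus groups overlapping each other and Hip Ctrl, at 7.10, reaching the Ctx CLO50 arrays. Jun ran from Hip CLO50 and Hip Ctrl, which overlapped, to Ctx CLO50 and Ctx Ctrl, which overlapped too. Fosl1 ran from Hip CLO50 and Hip Ctrl to Ctx Ctrl and Ctx CLO50, and Fosl2 from Ctx Ctrl through Hip Ctrl and Hip CLO50 to Ctx CLO50, where each neighbouring pair overlapped apart from Ctx Ctrl and Hip Ctrl.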

How the data were processed

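The log2 values per probe set were made and deposited by the authors, with RMA named, without a version, in the submitters' processing notes. RMA's usual output is the basis for reading the values as log2, since no header states a base. Fold sizes rest on this reading, which was not tested, and values ran as high as 19.51 (Ttr in hippocampus). Per the labels' protocols, 250 ng of total RNA with an integrity number above 7.0 went into GeneChip WT amplification and labelling. Scanner files were not used here, so no background or detection value was at hand, and precision is limited by having 2 arrays a group. Of 22206 probe sets 19572 carried 1 gene symbol and 2634 none. Probe sets in the lowest 33.3% by mean (below 3.937) were dropped, which kept 14804 for testing.

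Using limma 3.58.1 (R 4.3.3), lmFit estimated 1 mean for each tissue and treatment over the 8 arrays, and eBayes was run with trend (residual degrees of freedom 4, prior 7.918). All p-values are two-sided and were adjusted by Benjamini-Hochberg over the probe sets tested in each comparison, at a threshold of 0.05. The averaged exposure was fitted to means of arrays with 1 treatment and number. Values are log2, differences are the first group minus the second, and the fits were tested on simulated data. Members and lists were chosen with earlier results of these data known. All 7 members are described, the 3 most similar genes per member were named by Pearson r, and up to 3 genes per list were named by the smallest p under exposure. Alternatives were other filters, quantile normalization, no trend, arrays left out, 1 tissue alone and the array number as a block. Deviations of same-numbered arrays from their group means correlated at 0.276 in exposed and -0.00088 in vehicle mice. Each treatment gave only 1 such value, because the deviations of the arrays in a group mirror each other. These values cannot decide whether arrays of 1 treatment and number stem from 1 animal. The fit over the 8 arrays did not pair arrays by number, while the averaged exposure and the block used the numbers.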

Additional observations from a re-analysis of the deposited data

How the results depend on the processing

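Where 1 array is left out, the lone array of its group is assumed to vary like the other groups. Counts over all probe sets moved in most comparisons. For exposure in cortex, 1 probe set passed as deposited, 0 with quantile normalization or without the trend, 3 without Ctx Ctrl array 6 and Hip Ctrl array 1 together, 2 with cortex arrays alone and 0 to 2 with 1 array left out. For exposure in hippocampus the count was 1, then 0 under those 3 settings, 0 with hippocampus arrays alone, and 0 to 56 with 1 array left out (56 without Hip Ctrl array 6). For the difference between tissues it was 0, with 1 under the replicate block and 0 to 30 with 1 array left out. For the average it was 1, with 1 to 26 when 1 treatment and number was left out. For hippocampus over cortex it was 2143 in exposed mice (1074 to 2440 with 1 array left out) and 2620 in vehicle mice (1289 to 2532, and 1155 without the 2 arrays high in choroid plexus genes). Quantile normalization moved the share of higher calls in exposed mice from 63.9% to 51% (1018 higher and 978 lower, against 1370 and 773 as deposited). The cause of these moves was not tested, and settings with arrays left out also have fewer arrays. Without Hip Ctrl array 6, the vehicle hippocampus group was Hip Ctrl array 1 alone, an array high in choroid plexus genes.

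Of 546 recomputed member values, 502 kept direction and side of the threshold, 12 lost a call, 8 gained one and 24 turned sign, all of the last in exposure comparisons that did not pass. With 1 array left out, cortex exposure ran from -2.285 to 0.555 for Fos, -0.57 to 1.17 for Jun and -1.945 to 1.075 for Junb. In hippocampus it ran from -0.115 to 0.365 for Fos, -0.875 to 0.065 for Fosb, -0.585 to 0.065 for Fosl2 and -0.205 to 0.305 for Jun. The difference between tissues ran from -0.43 to 2.41 for Fos, -1.12 to 0.62 for Jun and -0.52 to 2.50 for Junb. The average ran from -1.1375 to 0.3975 for Fos, -0.1425 to 0.1275 for Fosl1, -0.2775 to 0.6275 for Jun, -0.66 to 0.78 for Junb and -0.1675 to 0.0175 for Jund. Without the 2 arrays high in choroid plexus genes Jun turned to -0.57 in cortex and to 0.655 for the difference between tissues, and with quantile normalization Fosl1 turned to 0.0041 for the average (-0.0075 as deposited).

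No paired analysis was possible for exposure, because mice received either clothianidin or vehicle and no label matches treated with vehicle mice. With the replicate block in the tissue comparisons, Jund passed in exposed mice (-0.705, limma adjusted p = 0.0388) and Fosl1 and Junb in vehicle mice (0.825 and -1.87, limma adjusted p = 0.0472 and 0.0212), and the calls over all probe sets numbered 2835 and 3433. The numbers are not shown to mark animals.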

Other observations

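The probe sets that differed most between the vehicle cortex arrays were picked after their values were seen. Besides Ttr, the transthyretin gene of choroid plexus (4.17 in array 1 and 15.41 in array 6), the named genes among the 8 widest gaps were Ccn1, Npas4, Junb, Ier2 and Btg2, all higher in array 1. Ier2, a nuclear immediate early gene, measured 7.28 and 4.32, and Btg2, an antiproliferative immediate early gene, 8.27 and 5.38. Kcnj13, also a choroid plexus marker, ranked 9 and was higher in array 6 (5.35 in array 1 and 8.22 in array 6). Dusp1, the MAP kinase phosphatase gene that limits the signal to AP-1, ranked 11 with 16.55 and 13.83. In the 4 hippocampus arrays the 32 co-induced genes were highest in Hip CLO50 array 3 for 17 (53.1%) and in Hip CLO50 array 6 for 9, against 23.5% and 27.5% of all tested probe sets. The AP-1 members were highest in Hip CLO50 array 3 for 3 of 7 and in array 6 for 3 of 7.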
